A study of Mus musculus with 40 samples.

Results

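The genes described here are the replication-dependent histone genes of the mouse, taken as all protein-coding genes whose GENCODE M21 symbol begins with Hist1h, Hist2h, Hist3h or Hist4h. The annotation held 67 such genes, and 59 of them had a row in the count table of 39012 genes, of which 37688 (96.6%) were matched to the annotation and 21299 were protein-coding. By type, these were 6 linker H1 genes, 18 H2A genes, 15 of 18 H2B genes, 7 of 12 H3 genes and 13 H4 genes. By position on GRCm38, 47 of 54 Hist1 genes lay on chromosome 13 between 21715763 and 23934851, and 9 of 10 Hist2 genes on chromosome 3 between 96219865 and 96269141. The 2 Hist3 genes lay on chromosome 11 between 58948920 and 58956830, and the 1 Hist4 gene on chromosome 6 between 136801553 and 136804415. The other 8 genes (Hist1h2bh, Hist1h2bm, Hist1h3d, Hist1h3f, Hist1h3g, Hist1h3h, Hist1h3i and Hist2h2bb) were not analysed here.

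The libraries came from 40 EMT-6 tumors, a mouse mammary carcinoma line grown in the right mammary pad of female Balb/C mice aged 8 to 12 weeks after injection of the cells. Dosing into a vein began 20 days later, at tumor volumes of about 400 mm3. Doses were given on days 0, 1 and 2, and the 10 tumors of each group were collected on day 6. The bifunctional group received Anti-PDL1/TGFβ Trap at 492 µg, a fusion of an antibody to PD-L1 with a trap for TGFβ. The trap control group received Anti-PDL1 (mut)/TGFβ Trap control at 492 µg, whose PD-L1 arm the label marks as mutated. The anti-PD-L1 group received 400 µg of anti-PD-L1, and the isotype group 400 µg of an inactive anti-PD-L1 isotype control. Every mouse thus carried the same transplanted line and received an antibody or fusion protein. The titles number the libraries C0449 to C0488. C0449 to C0464 form set 1, with 6 trap control and 10 isotype libraries, and C0465 to C0488 form set 2, with 10 bifunctional, 4 trap control and 10 anti-PD-L1 libraries. Tests between the sets ran through the trap control group, which lies in both. The exception is the difference of differences, which sets a difference within set 2 against a difference within set 1. Other values of the sets are given side by side with no test.

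Replication-dependent histone genes supply the histones that package new DNA during S phase. They have no introns as a rule, lie in clusters, and are switched on together by the coactivator NPAT at the start of S phase. Their mRNAs end in a stem-loop in place of a poly(A) tail. The stem-loop is bound by SLBP, and cleavage after it is guided by the U7 small nuclear ribonucleoprotein. When DNA synthesis stops, the mRNAs are degraded, so that their level follows the share of cells that are replicating DNA. The libraries were made from total RNA by ribosomal depletion and random priming, a route that does not select for poly(A) tails.

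The stem-loop was searched in the annotated transcripts because it marks this gene family and sets off the H4 genes from the others. A stem of 6 base pairs closed by a loop of 4 bases was found after the coding region of 41 of the 59 members. It was found in 4 of the H1, 11 of the H2A, 8 of the H2B, 6 of the H3 and 12 of the H4 genes. There were 7 distinct versions. The commonest version, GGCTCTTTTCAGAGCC, was in 23 members, all of them H1, H2A, H2B or H3 genes. The version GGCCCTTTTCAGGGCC was in 7 members, all H4. Every H4 stem-loop began with GGCCC or GGTCC, and every stem-loop of the other types began with GGCTC. Of the 18 members with none, 12 had models that end within 5 bases of the coding region. The examples below, in GENCODE M21 transcripts, have the stem-loop in capitals with 5 bases on each side.
Hist1h4n: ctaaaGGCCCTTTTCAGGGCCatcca
Hist1h4d: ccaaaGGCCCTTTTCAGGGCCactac
Hist2h2aa1: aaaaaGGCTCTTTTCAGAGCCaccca
Hist1h2bk: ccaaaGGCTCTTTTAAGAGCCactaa
Hist1h3c: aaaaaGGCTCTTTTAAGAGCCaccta
Hist3h2a: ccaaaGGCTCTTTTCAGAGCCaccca
The annotated transcript runs on for 31 bases after the stem-loop in Hist1h4n, 770 bases in Hist1h4d and 1643 bases in Hist3h2a. Across the family, 21 models end within 100 bases of the stem-loop and 20 run further.

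The promoters were read because the members moved together in the comparisons below. RefSeq windows of GRCm38.p6, from 250 bases before to 50 bases after the start, were matched to 54 members by position and strand. Both strands were searched for 4 motifs. CCAAT was in 45 of the 54 windows (83.3%), against 37.4% of all 32851 windows in the table. It was in every H1, H2A, H2B and H3 window and in 3 of 12 H4 windows. TATAAA was in 32 member windows (59.3%), against 13.6% of all windows. ATTTGCAT, the octamer known from H2B promoters, was in 11 member windows (20.4%), against 1.74% of all windows. These were 7 of 17 H2A and 4 of 13 H2B windows. AAACACA, known from H1 promoters, was in 5 of 6 H1 windows and 8 member windows in all (14.8%), against 7.18% of all windows. Many H2A and H2B genes face each other across a short gap, so that their windows overlap and share motifs. Below, the 150 bases before the RefSeq start of an H1, an H2B and an H4 gene are shown with these motifs in capitals, ATTGG being CCAAT on the other strand. The H1 gene lies on the minus strand and the others on the plus strand.
Hist1h1b, chr13:21780626-21780775: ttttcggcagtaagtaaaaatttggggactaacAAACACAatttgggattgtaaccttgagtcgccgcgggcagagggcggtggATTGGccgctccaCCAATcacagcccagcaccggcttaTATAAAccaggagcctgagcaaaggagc
Hist1h2bk, chr13:22035671-22035820: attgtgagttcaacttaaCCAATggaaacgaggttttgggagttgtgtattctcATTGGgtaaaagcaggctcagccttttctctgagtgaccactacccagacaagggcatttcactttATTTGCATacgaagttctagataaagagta
Hist1h4d, chr13:23581418-23581567: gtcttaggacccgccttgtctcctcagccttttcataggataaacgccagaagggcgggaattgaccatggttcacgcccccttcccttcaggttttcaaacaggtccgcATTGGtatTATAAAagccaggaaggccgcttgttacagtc
The sequences describe the genes. Whether any of these motifs bears on the values below was not tested.

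The deposited values were RSEM expected counts and TPM, in which each library's length-scaled transcript levels sum to 1 fixed total. Expected counts summed to between 13495835 and 27658263 per library. The sets differed in composition. The 7SL, 7SK and mitochondrial ribosomal RNAs took 30.6 to 63.3% of counts in set 1 and 12.8 to 19.6% in set 2. Keratin, cadherin, Epcam and vimentin genes listed for the tumor line took 0.371 to 0.813% of protein-coding counts, and all 6 passed the filter on low counts in both sets. Skeletal muscle genes took 0.301% of protein-coding counts in bifunctional library C0479, 0.603% in bifunctional library C0484 and 1.49% in set 1 trap control library C0463, while the medians of the 5 groups of libraries were at or below 0.00614%. No pair of libraries within a group agreed within sampling noise (lowest chi-square 8.91 per degree of freedom). The labels do not say more of the replicates than that they are separate tumors.

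Because family members are close copies, reads were shared between them. Of the member counts, 85.4% were not whole numbers, against 14.01% over all genes. The median member shared 43.7% of its 50-base windows with another member, and 26 members shared over 50%. For close copies, a difference in expression and a difference in how reads were assigned cannot be told apart.

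At the level of single genes, expression per length spanned from 0 to 738 TPM. Over all 40 libraries the highest mean TPM belonged to Hist1h4n, Hist2h2aa1 and Hist1h4d, which encode core histones H4, H2A and H4. TPM should not be compared between the sets, since the structural RNAs take a share of the same total. That share also varied between libraries of a set, and the median gene was higher in bifunctional than in anti-PD-L1 TPM. The TPM here and in the next paragraphs give levels and not the direction of a change between groups. Hist1h4n ranged from 323 to 578 TPM in bifunctional libraries (median 505), from 408 to 669 in set 2 trap control libraries (median 513) and from 457.3 to 575 in anti-PD-L1 libraries (median 514). In set 1 it ranged from 30.9 to 248 TPM in trap control libraries (median 125) and from 53.1 to 145 in isotype libraries (median 111). All groups overlapped within their set.

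Hist2h2aa1 ranged from 342 to 594 TPM in bifunctional libraries (median 474.9), from 432 to 738 in set 2 trap control libraries (median 580) and from 464.1 to 565 in anti-PD-L1 libraries (median 525). In set 1 its medians were 86.3 TPM in trap control and 74.1 TPM in isotype libraries. Hist1h2bk, the H2B gene with the highest mean TPM over all 40 libraries, had medians of 268 TPM in bifunctional, 261 TPM in set 2 trap control and 273 TPM in anti-PD-L1 libraries. Its set 1 medians were 61.2 TPM in trap control and 49.99 TPM in isotype libraries. Neither gene separated the groups of a set in TPM.

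Among the H3 genes, Hist2h3b had medians of 147 TPM in bifunctional, 141 TPM in set 2 trap control and 131 TPM in anti-PD-L1 libraries, and of 57.8 TPM in set 1 trap control and 46.4 TPM in isotype libraries. Among the linker genes, Hist1h1e had medians of 142, 135 and 122 TPM in bifunctional, set 2 trap control and anti-PD-L1 libraries, and of 49.4 TPM in set 1 trap control and 42.4 TPM in isotype libraries. Hist3h2a was lower, with medians of 17.1, 16.9 and 17.1 TPM in the bifunctional, trap control and anti-PD-L1 libraries of set 2, and of 3.36 TPM in trap control and 2.50 TPM in isotype libraries of set 1. Hist3h2ba did not exceed 3.76 TPM in any library. Hist4h4 had medians of 27.5, 25.9 and 26.2 TPM in the bifunctional, trap control and anti-PD-L1 libraries of set 2, and of 7.05 TPM in trap control and 6.64 TPM in isotype libraries of set 1.

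The 3 genes known for expression in testis were at or near 0. Hist1h1t did not exceed 0.09 TPM, Hist1h2aa 0.13 TPM and Hist1h2ba 0.81 TPM in any library. Hist1h2aa had no count in 34 of the 40 libraries and Hist1h1t none in 15. Hist1h4m had no count in 36 libraries.

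**Figure D1:**
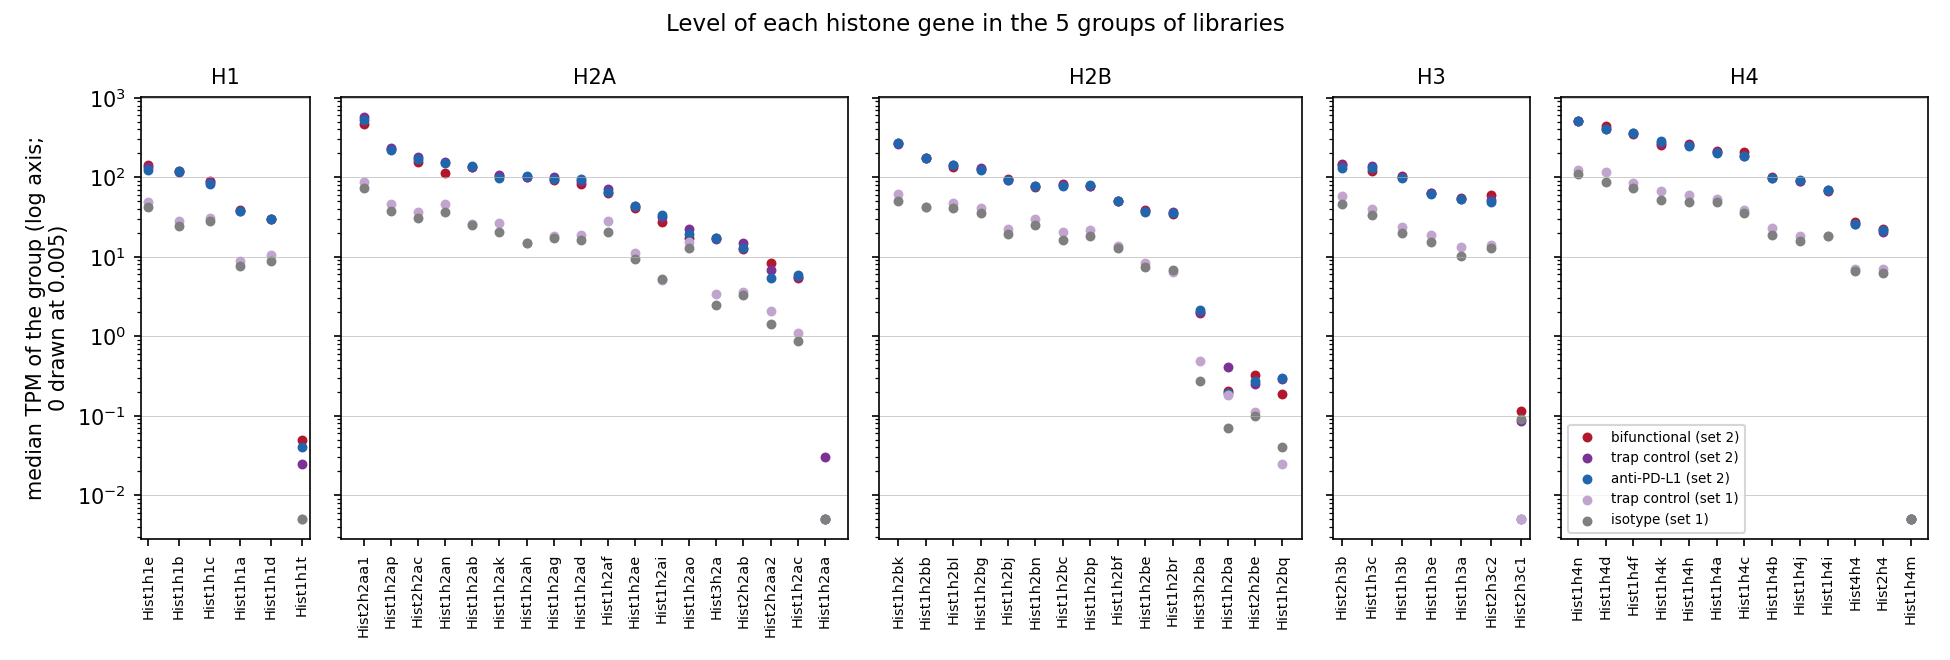
Median TPM of each of the 59 histone genes in the 5 groups of libraries, on a log axis, by type and ordered by mean TPM. Levels are to be read within a set, where the groups of set 2 lie close together for the abundant genes, and the testis genes Hist1h1t, Hist1h2aa and Hist1h2ba lie near 0.

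The members' summed counts were read as a share of protein-coding counts, which leaves out the structural RNAs. The share ranged from 0.592 to 0.987% in bifunctional libraries (median 0.858%) and from 0.951 to 1.33% in anti-PD-L1 libraries (median 1.05%). All 10 bifunctional libraries lay under the anti-PD-L1 median and 8 lay under the lowest anti-PD-L1 library. The 4 trap control libraries of set 2 had 1.02, 0.892, 1.25 and 1.01%. In set 1 the share ranged from 0.394 to 0.925% in trap control libraries (median 0.602%) and from 0.366 to 0.701% in isotype libraries (median 0.555%), and these groups overlapped. As mean ± SD the share was 0.855 ± 0.115% in bifunctional (n = 10), 1.04 ± 0.149% in set 2 trap control (n = 4) and 1.06 ± 0.114% in anti-PD-L1 libraries (n = 10). It was 0.636 ± 0.197% in set 1 trap control (n = 6) and 0.534 ± 0.102% in isotype libraries (n = 10). In tumors sampled in bulk, fewer replicating cells and less histone mRNA per cell cannot be told apart.

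**Figure D2:**
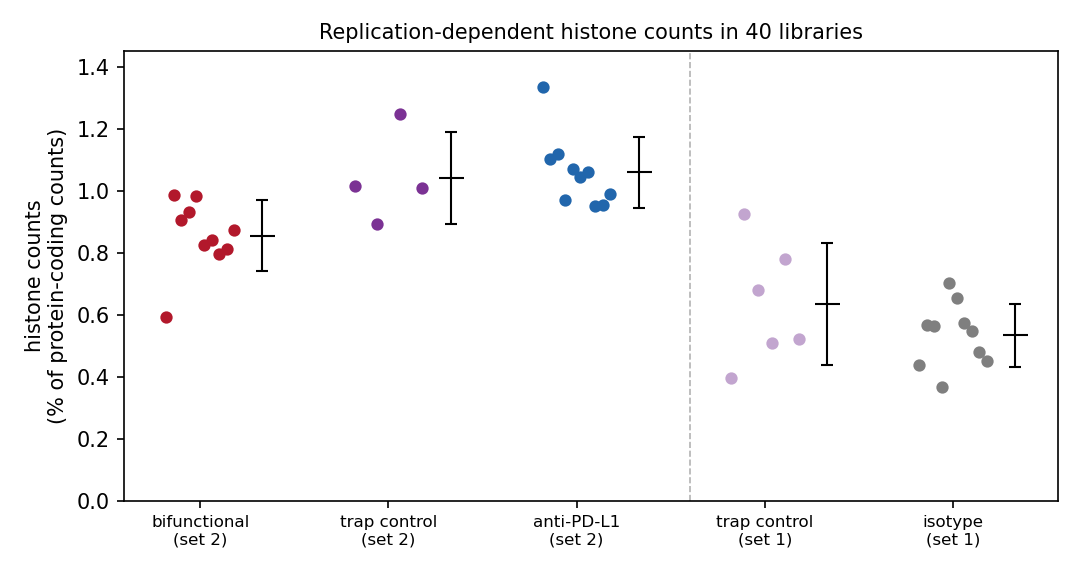
Histone counts as a percent of protein-coding counts in each of the 40 libraries (points), with the mean and SD of each group (black). Bifunctional libraries average 0.855% and anti-PD-L1 libraries 1.06%, and the set 1 groups, right of the dashed line, average 0.636 and 0.534%.

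The part of histone counts taken by H2A and by H1 genes differed between the sets, and that of H2A also between groups of set 2. H4 genes took 28.5 to 30.6% of histone counts in bifunctional and 28.2 to 30.0% in anti-PD-L1 libraries. H2A genes took 24.03 to 26.4% in bifunctional, 26.7 to 27.5% in set 2 trap control and 26.05 to 28.4% in anti-PD-L1 libraries, so that the trap control range lay above the bifunctional one and the anti-PD-L1 range overlapped it. H1 genes took 15.1 to 17.0% in bifunctional and 13.8 to 16.3% in anti-PD-L1 libraries. In set 1, H2A took 20.9 to 23.5% in trap control and 19.7 to 22.0% in isotype libraries, below every library of set 2. H1 genes took 19.3 to 21.5% in set 1 trap control and 18.2 to 21.6% in isotype libraries, above every library of set 2.

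The comparison of bifunctional with anti-PD-L1 tumors asks what the TGFβ trap adds to an antibody against PD-L1, and both groups lie in set 2. Most histone genes were lower in bifunctional tumors. Of the 55 members that passed the filter on low counts, 45 fell and 1 rose at an adjusted p under 0.05 (edgeR quasi-likelihood test, adjusted over 15704 genes). Of all genes tested, 13.1% fell and 12.4% rose. The median log2 fold change was -0.38 over the members and 0.01 over all genes. Of the H2A genes tested 16 of 17 fell, with a median log2 fold change of -0.45. Of the H4 genes 10 of 12 fell (median -0.35), of the H2B genes 12 of 14 (median -0.37), of the H3 genes 4 of 7 (median -0.31) and of the H1 genes 3 of 5 (median -0.31). Differences between the types were not tested.

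Hist1h2an, which encodes a core histone H2A, ranged from 40.1 to 68.2 CPM (counts relative to library size, scaled by the trimmed mean of M-values) in bifunctional libraries, with a median of 56.4. In anti-PD-L1 libraries it ranged from 72.1 to 98.0 CPM, with a median of 81.0, so that the groups did not overlap. It fell by 0.60 on the log2 scale (SE 0.09, adjusted p = 0.00241), or by 34.0%. Hist1h2ai ranged from 34.0 to 63.4 CPM in bifunctional libraries (median 51.3) and from 68.3 to 89.4 CPM in anti-PD-L1 libraries (median 73.9). It fell by 0.59 (SE 0.09, adjusted p = 0.00241). Hist1h2ae ranged from 31.2 to 51.3 CPM in bifunctional libraries (median 45.8) and from 52.9 to 78.9 CPM in anti-PD-L1 libraries (median 59.3). These 3 were the members whose groups did not overlap, a pattern that 0.0955% of all genes showed in the same direction.

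The abundant H2A gene Hist2h2aa1 ranged from 289 to 460 CPM in bifunctional libraries (median 387) and from 404 to 645 CPM in anti-PD-L1 libraries (median 493.04). The groups overlapped, and it fell by 0.39 (SE 0.09, adjusted p = 0.00921). Hist2h2aa2, another H2A gene of the Hist2 cluster, was not called and is named here after its values were seen. It shares 100% of its windows with another member. Its TPM ranged from 4.32 to 17.75 in bifunctional and from 3.08 to 7.12 in anti-PD-L1 libraries. Hist1h2ad and Hist1h2ac fell by 0.59 each, with adjusted p = 0.00255 and adjusted p = 0.00354. Hist3h2a, the H2A gene of the Hist3 cluster, ranged from 42.6 to 78.1 CPM in bifunctional libraries (median 60.5) and from 66.9 to 103 CPM in anti-PD-L1 libraries (median 80.0), and fell by 0.43 (SE 0.10, adjusted p = 0.00827).

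Among H2B genes, Hist1h2bk ranged from 111 to 202 CPM in bifunctional libraries (median 159) and from 185 to 275 CPM in anti-PD-L1 libraries (median 219). It fell by 0.42 (SE 0.10, adjusted p = 0.00758). Hist1h2bb fell by 0.38 (SE 0.11, adjusted p = 0.0199) and Hist1h2bl by 0.41 (SE 0.10, adjusted p = 0.00932). The lowest log2 fold change of any member, -0.69 (SE 0.20, adjusted p = 0.0196), was that of Hist1h2bq, named here after its values were seen, which averaged 0.956 ± 0.308 CPM in bifunctional and 1.52 ± 0.461 CPM in anti-PD-L1 libraries (SD, n = 10 each). Hist3h2ba averaged 1.99 ± 0.529 CPM in bifunctional and 2.48 ± 0.494 CPM in anti-PD-L1 libraries (SD, n = 10 each) and did not pass (log2 fold change -0.35, adjusted p = 0.114).

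Among H4 genes, Hist1h4n ranged from 190 to 315 CPM in bifunctional libraries (median 258) and from 287 to 425 CPM in anti-PD-L1 libraries (median 329). All 10 bifunctional libraries lay under the anti-PD-L1 median, and the gene fell by 0.38 (SE 0.09, adjusted p = 0.00714). Hist1h4d fell by 0.31 (SE 0.08, adjusted p = 0.0129), Hist1h4f by 0.40 (SE 0.09, adjusted p = 0.0072) and Hist1h4j by 0.46 (SE 0.09, adjusted p = 0.00529). Hist4h4, apart from the clusters, averaged 157 ± 25.97 CPM in bifunctional and 188 ± 32.2 CPM in anti-PD-L1 libraries (SD, n = 10 each) and just missed the threshold (log2 fold change -0.29, adjusted p = 0.0523).

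Among H3 genes, Hist1h3c ranged from 80.4 to 156 CPM in bifunctional libraries (median 114) and from 135 to 194 CPM in anti-PD-L1 libraries (median 156), and fell by 0.43 (SE 0.09, adjusted p = 0.00609). Hist1h3b fell by 0.34 (SE 0.09, adjusted p = 0.0102). Hist2h3b averaged 91.6 ± 13.2 CPM in bifunctional and 98.6 ± 10.6 CPM in anti-PD-L1 libraries (SD, n = 10 each) and did not pass (log2 fold change -0.14, adjusted p = 0.245).

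The products of the linker histone genes bind DNA between nucleosomes. Hist1h1b ranged from 94.6 to 160.47 CPM in bifunctional libraries (median 135) and from 90.7 to 199.98 CPM in anti-PD-L1 libraries (median 170), and fell by 0.31 (SE 0.11, adjusted p = 0.0425). Hist1h1d fell by 0.44 (SE 0.09, adjusted p = 0.00584) and Hist1h1e by 0.26 (SE 0.08, adjusted p = 0.024). Hist1h1c averaged 269 ± 30.4 CPM in bifunctional and 290 ± 27.5 CPM in anti-PD-L1 libraries (SD, n = 10 each) and did not pass (log2 fold change -0.14, adjusted p = 0.155).

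The single member that rose was Hist2h3c1, an H3 gene of the Hist2 cluster. It ranged from 0 to 1.22 CPM in bifunctional libraries (median 0.442) and from 0 to 0.0989 CPM in anti-PD-L1 libraries (median 0), with 369 counts over all 40 libraries and none in 15 of them, and 62.5% of its values were not whole. Its fitted log2 fold change of 4.52 (SE 0.88, adjusted p = 0.00437) rests on those few assigned reads and took a value of -0.051 when fitted on TPM with equal medians.

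**Figure D3:**
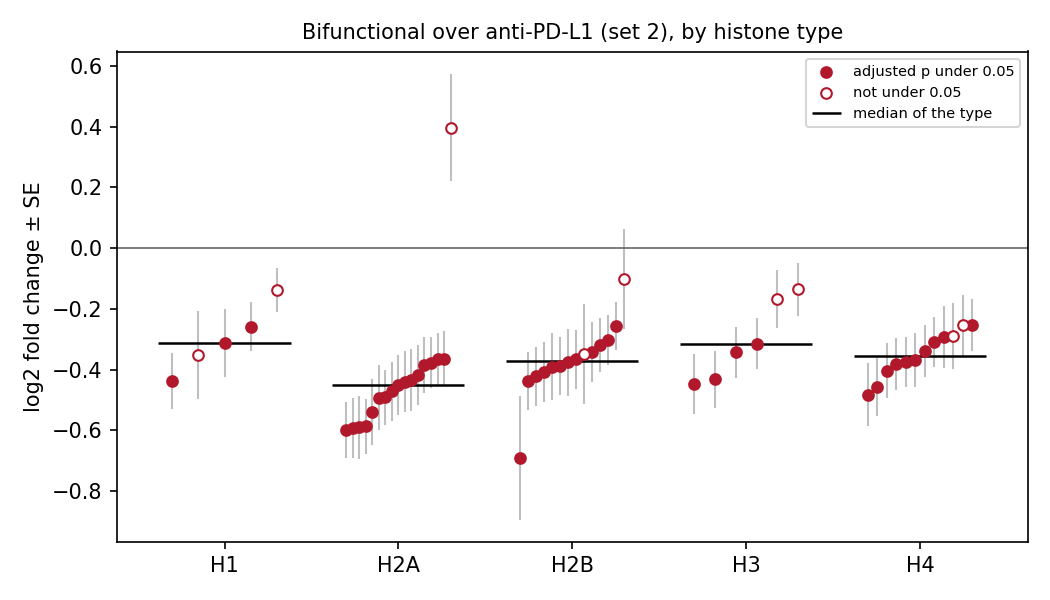
Log2 fold change (± SE) of bifunctional over anti-PD-L1 libraries for 54 histone genes by type, with filled points at adjusted p under 0.05 and a bar at the type's median over all its tested members. Hist2h3c1, at 4.52, is off the scale and not drawn, and 53 of the 55 tested members lie below 0.

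By cluster, 41 of 43 tested Hist1 genes fell (median log2 fold change -0.38). In the Hist2 cluster 3 of 9 fell (median -0.17), namely Hist2h2aa1, Hist2h2ab and Hist2h2ac. Of the 2 Hist3 genes, Hist3h2a fell. Members whose models end within 100 bases of the stem-loop fell in 19 of 20 cases, those with longer models in 13 of 19, and those with no stem-loop in a model in 13 of 16. Of the members that share over 50% of their windows with another, 22 of 25 fell, and of the others 23 of 30. Members with CCAAT in their window fell in 35 of 42 cases and those without it in 7 of 8. None of these splits was tested. The models, also used for the shared windows, are those of GENCODE M21, and the deposited values rest on other transcript lengths for some members. Hist1h2ai and Hist1h2an both have models of 393 bases. Over all libraries, Hist1h2ai had 55228 counts at a mean of 20.3 TPM, and Hist1h2an 66367 counts at 98.1 TPM.

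Genes that act in the same phase of the cell cycle were lower as well. Of 34 listed S phase and replication genes, 28 fell and none rose (median log2 fold change -0.33). Pcna, the sliding clamp of DNA polymerase, fell by 0.37 (SE 0.08, adjusted p = 0.00765), and Mcm2, a helicase subunit, by 0.33 (SE 0.09, adjusted p = 0.0139). Of 18 mitosis genes 14 fell (median -0.41), while Mki67, a marker of cycling cells, had a log2 fold change of -0.11 and did not pass (adjusted p = 0.402).

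Of 18 genes for histone mRNA synthesis and processing, 11 fell (median log2 fold change -0.21). Slbp, which encodes the stem-loop binding protein, averaged 49.5 ± 6.92 CPM in bifunctional and 58.8 ± 7.76 CPM in anti-PD-L1 libraries (SD, n = 10 each) and fell by 0.28 (SE 0.09, adjusted p = 0.028). Npat averaged 30.6 ± 2.71 CPM in bifunctional and 31.8 ± 2.57 CPM in anti-PD-L1 libraries and did not pass (log2 fold change -0.09, adjusted p = 0.304). Of 15 histone chaperone genes 8 fell (median -0.21), among them Hat1, a histone acetyltransferase, by 0.38 (SE 0.08, adjusted p = 0.00525) and Nasp, a chaperone of H3 and H4, by 0.38 (SE 0.08, adjusted p = 0.00652).

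Of 11 listed histone genes that are expressed outside S phase, most of them with poly(A) tails, 3 fell and none rose (median log2 fold change -0.13). H2afz fell by 0.38 (SE 0.10, adjusted p = 0.0107), H2afx, whose mRNA can end either way, by 0.31 (SE 0.08, adjusted p = 0.0134), and Cenpa, the H3 variant of centromeres, by 0.28 (SE 0.10, adjusted p = 0.0415). The H3.3 genes H3f3a and H3f3b had log2 fold changes of -0.15 (adjusted p = 0.121) and -0.11 (adjusted p = 0.366). The difference between these genes and the members was not tested.

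Other values moved with this result. Of 15 T and NK cell genes 11 rose (median log2 fold change 1.24), of 10 macrophage genes 7 rose (median 0.54) and of 10 skeletal muscle genes 9 rose (median 4.37). Summed, the T and NK cell genes took 0.00266 to 0.00561% of protein-coding counts in bifunctional and 0.00148 to 0.00241% in anti-PD-L1 libraries, which did not overlap. The macrophage genes took 0.240 to 0.554% in bifunctional and 0.195 to 0.323% in anti-PD-L1 libraries. Of the other lists, 3 of 8 adipocyte and 2 of 3 tested keratinocyte genes rose, and none of 5 erythroid genes and 5 structural RNAs passed. Of the 6 genes listed for the tumor line, Cdh1, an epithelial cadherin, rose by 1.46 (SE 0.49, adjusted p = 0.034), and Krt8, a keratin, fell by 0.59 (SE 0.16, adjusted p = 0.0143). The other 4 did not pass. The part of these lists in the result was not tested. Without C0479 and C0484, the libraries with the most muscle RNA in the group, 29 members fell, against 3.04% of the 15480 genes tested, and the share was 0.892 ± 0.0734% in the remaining 8 bifunctional libraries. Other protein-coding genes under 700 bases, the length range of most members, had a median log2 fold change of -0.08, with 175 higher and 392 lower of 1828.

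When the mean level of the S phase list was added to the fit as a covariate, the members' median log2 fold change became -0.01 and none was called by edgeR, with 5 at an unadjusted p under 0.05 and 0.0127% of all genes called. The S phase list itself fell between these groups, so the covariate and the group cannot be fully told apart in this fit. The part of S phase content in the result was not tested. On TPM the median gene was 0.15 higher in bifunctional libraries on the log2(TPM + 1) scale, 3043 of all genes were called higher and 43 lower, and only 1 member fell and 2 rose by limma. With the library medians set equal, 40 members fell, against 10.8% of all genes, and their median was -0.34. The covariate and the equal medians were added after the data were seen.

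**Figure D4:**
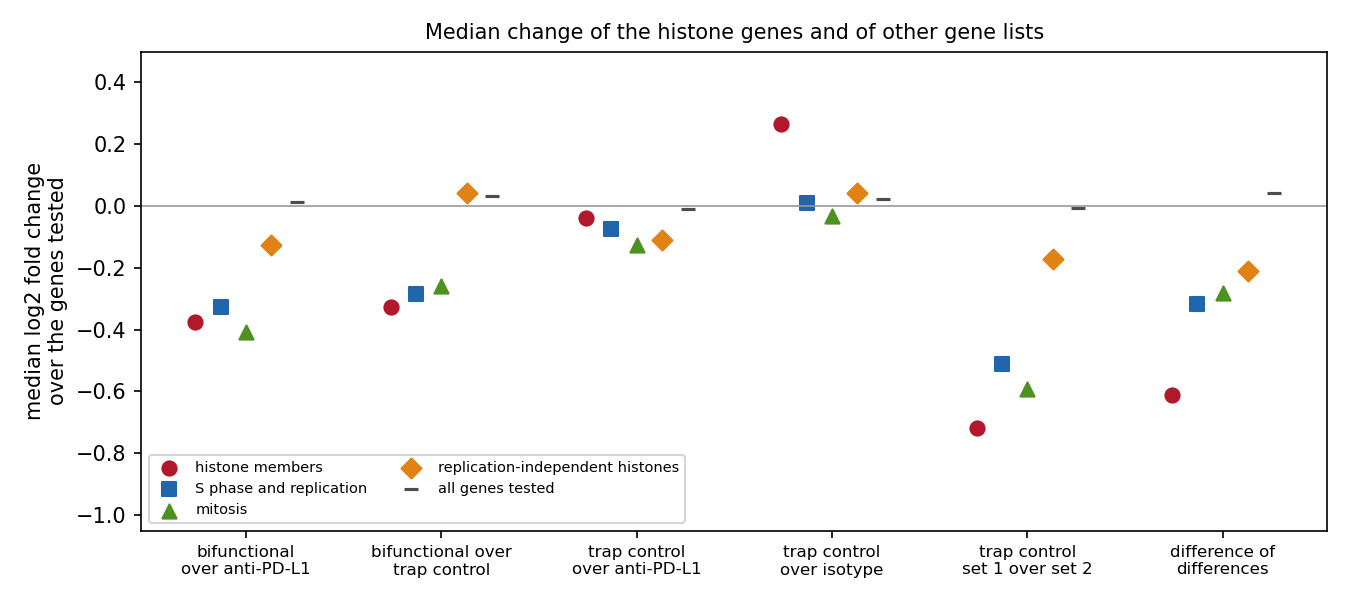
Median log2 fold change of the tested histone members, 3 other gene lists and all genes tested, in 4 comparisons within a set, between the trap control libraries of the sets, and for the difference of differences. The points are medians over the genes tested, with no error. The histone members and the S phase genes lie together at -0.38 and -0.33 in the first comparison and apart at 0.26 and 0.01 for trap control over isotype.

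The other comparisons in set 2 rest on 4 trap control libraries, which enter as the group set against bifunctional and as the group set against anti-PD-L1. Bifunctional tumors against trap control tumors ask what an intact PD-L1 arm does beside the trap. No member passed in edgeR, where 0.00637% of all genes were called in either direction, although 42 of 55 had an unadjusted p under 0.05. DESeq2 called 9 members lower, and its share over all genes is not given here. The median log2 fold change was -0.33 over the members and 0.03 over all genes. Hist1h2an had 82.9, 72.7, 103 and 73.7 CPM in the trap control libraries, all above the highest bifunctional library at 68.2 CPM, with a log2 fold change of -0.61 (SE 0.12, adjusted p = 0.0875). Hist2h2aa1 had 500, 470.5, 592 and 497 CPM, also above every bifunctional library, with a log2 fold change of -0.43 (SE 0.12, adjusted p = 0.148). The share of all genes whose groups do not overlap is not given here for this comparison.

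Trap control against anti-PD-L1 tumors of set 2 had a median log2 fold change of -0.04 over the members. No member passed in edgeR or DESeq2, with 0.0127% of all genes called in either direction. Hist2h3c1 was the 1 member with an unadjusted p under 0.05 in edgeR. Hist1h4n had 314, 306, 370 and 295 CPM in the trap control libraries, within the anti-PD-L1 range of 287 to 425 CPM.

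In set 1, trap control tumors set against isotype tumors show the trap protein without binding of PD-L1. The members' log2 fold changes were mostly above 0, at a median of 0.26 against 0.02 over all genes, but only 1 rose and 1 fell, where 3.19% of all genes rose and 4.15% fell. The rise was that of Hist1h2bc, an H2B gene with no stem-loop found in its model. It ranged from 58.1 to 90.3 CPM in trap control libraries (median 66.3) and from 45.2 to 64.5 CPM in isotype libraries (median 53.9), and rose by 0.39 (SE 0.10, adjusted p = 0.0311). The fall was that of Hist2h3c1, which ranged from 0 to 0.480 CPM in trap control libraries (median 0.0516) and from 0 to 1.69 CPM in isotype libraries (median 0.879), with an adjusted p of 0.0471. In edgeR no member passed without C0463, the trap control library with muscle RNA (4 at an unadjusted p under 0.05), and none passed with the filter on low counts removed (10 at an unadjusted p under 0.05).

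Hist1h4n ranged from 110.45 to 264 CPM in set 1 trap control libraries (median 185) and from 114 to 217 CPM in isotype libraries (median 175), a wide overlap. Of the 34 S phase genes none rose and 1 fell (median log2 fold change 0.01). Of the 6 tumor line genes Cdh1 fell, by 0.85 (SE 0.24, adjusted p = 0.0415). The summed histone count per count of the S phase list was 2.45 to 3.69 in trap control libraries (median 3.11) and 2.31 to 2.98 in isotype libraries (median 2.64), and the groups overlapped. In set 2 that ratio was 3.40 to 3.88 in bifunctional libraries (median 3.67), 3.64 to 3.91 in trap control libraries (median 3.78) and 3.45 to 4.13 in anti-PD-L1 libraries (median 3.73). With the S phase list as a covariate, 20 members rose and 1 fell in set 1, against 5.44% of all genes that rose, an alternative added after the data were seen.

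The trap control group was the bridge between the sets, with 6 libraries in set 1 and 4 in set 2 of the same treatment. Histone genes were lower in set 1. Of 54 members tested, 38 fell and none rose, while 23.3% of all genes fell and 25.1% rose. The median log2 fold change was -0.72 over the members and -0.01 over all genes. In 28 members every set 1 library lay under every set 2 library, as did 17.2% of all genes.

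Of the H2A genes 12 of 17 fell, with a median log2 fold change of -1.01, and differences between the types were not tested. Hist2h2aa1 ranged from 124 to 314 CPM in set 1 (median 172) and had 500, 470.5, 592 and 497 CPM in set 2. It fell by 1.44 (SE 0.22, adjusted p = 0.000421). Hist3h2a ranged from 25.1 to 44.7 CPM in set 1 (median 34.1) and had 74.7, 74.4, 98.1 and 74.0 CPM in set 2. It fell by 1.23 (SE 0.15, adjusted p = 0.000119).

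Of the H2B genes 10 of 14 fell (median -0.71), and Hist1h2bk fell by 0.90 (SE 0.19, adjusted p = 0.00223). Of the H4 genes 10 of 12 fell (median -0.71), and Hist1h4n fell by 0.75 (SE 0.21, adjusted p = 0.0129). Of the H3 genes 4 of 6 fell (median -0.61) and of the H1 genes 2 of 5 (median -0.29). Hist1h2ao was among the members that were not lower in set 1 and did not pass, at 6.85 to 49.9 CPM in set 1 (median 30.9) and 14.4, 16.5, 15.953 and 17.98 CPM in set 2 (log2 fold change 0.94, adjusted p = 0.053).

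Of the S phase genes 19 of 34 were lower in set 1 and 3 higher (median log2 fold change -0.51), and of the mitosis genes 14 of 18 were lower and 3 higher. Among markers of cells, 5 of 6 tumor line genes, 5 of 9 tested T and NK cell genes, 3 of 10 macrophage genes and 3 of 5 tested adipocyte genes were lower in set 1, and their part was not tested. Other protein-coding genes under 700 bases had a median of -0.23, with 249 higher and 634 lower of 1727. The structural RNA share was 30.6 to 63.3% in the set 1 libraries and 14.001 to 18.5% in the set 2 libraries of this group. With that share as a covariate, none fell and 1 rose in edgeR, with 3 at an unadjusted p under 0.05, against 1.60% of all genes that fell. Since the share does not overlap between the sets, it and the set cannot be told apart. Without set 2 library C0467 22 members fell. On TPM, 53 of 54 members fell, but the median gene was 0.65 lower on the log2(TPM + 1) scale, with 275 genes higher and 10779 lower. With the library medians set equal, 49 members fell and 2 rose. The share of all genes called is not given here for that fit or for the fit without C0467.

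**Figure D5:**
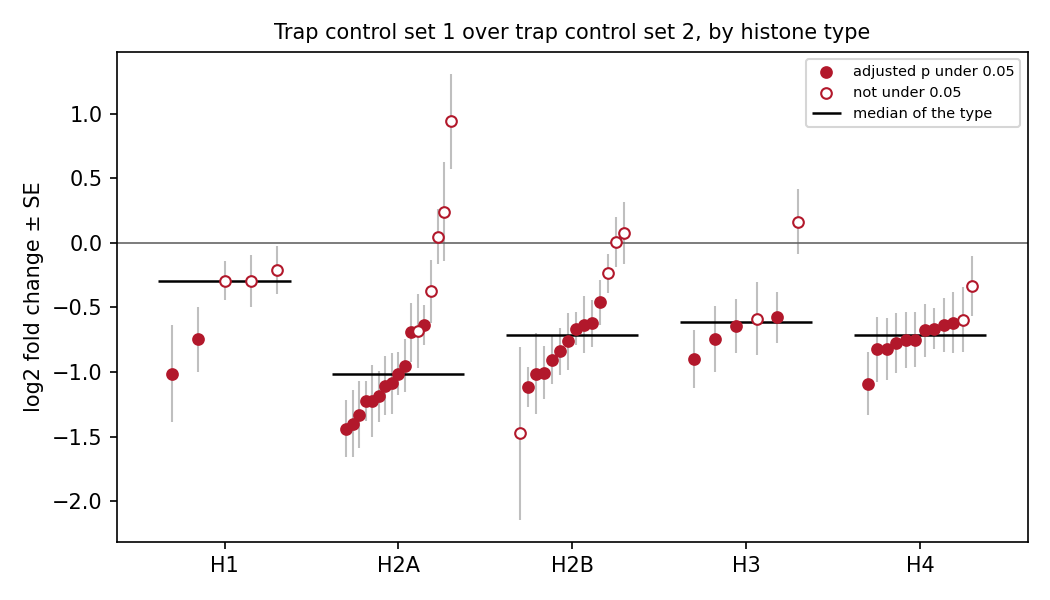
Log2 fold change (± SE) of set 1 over set 2 trap control libraries for 54 histone genes by type, with filled points at adjusted p under 0.05 and a bar at the type's median. The H2A median is -1.01 and the H1 median -0.29, and 48 of the 54 genes lie below 0.

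Comparisons with the isotype group across sets were fitted with the set as a term, so that they pass through the trap control libraries and share them. For anti-PD-L1 over isotype, the members' median log2 fold change was 0.31 and none passed in edgeR, with 0.0124% of all genes called in either direction and 5 members at an unadjusted p under 0.05. DESeq2 called 1 member lower, and its share over all genes is not given here. For bifunctional over isotype the median was -0.05 and none passed in edgeR or DESeq2, with 2.39% of all genes called in either direction and no member at an unadjusted p under 0.05 in edgeR.

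The difference of differences sets bifunctional minus anti-PD-L1, measured in set 2, against trap control minus isotype, measured in set 1. It asks whether adding the trap had the same effect with and without PD-L1 binding. Of 55 members 31 were lower and 1 higher, where 3.95% of all genes were lower and 3.96% higher. The median was -0.61 over the members and 0.04 over all genes. By type, 15 of 17 H2A, 5 of 14 H2B, 3 of 7 H3, 6 of 12 H4 and 2 of 5 H1 genes were lower, and the higher one was Hist2h3c1. Hist1h2an had the smallest p among the lower members, at -1.10 on the log2 scale (SE 0.21, adjusted p = 0.004), with -0.60 for bifunctional over anti-PD-L1 and 0.54 for trap control over isotype.

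Since the first difference lies wholly in set 2 and the second in set 1, the set and the binding of PD-L1 cannot be told apart in it. It left 15 members lower without C0479 and C0484 and 16 without C0463. The share of all genes called lower in those fits is not given here and need not equal that of the main fit. With the S phase list as a covariate 7 were lower, against 0.965% of all genes. On TPM the median gene was 0.14 higher, 51 genes were called higher and 8 lower, and no member was called lower by limma, with 2 at an unadjusted p under 0.05. With the library medians set equal, 1 was lower. Of the 34 S phase genes 4 were lower (median -0.32), among them Mcm5 and Mcm7. Of the 18 histone mRNA processing genes 3 were lower, namely Srrt at -0.54 (SE 0.10, adjusted p = 0.00433), Snrpb at -0.53 (SE 0.11, adjusted p = 0.00898) and Sympk at -0.31 (SE 0.09, adjusted p = 0.0232). Of the 18 mitosis genes 2 were lower, of the 11 replication-independent histone genes 2 (H2afx and H2afy) and of the 15 chaperone genes 1 (Ipo4). Among markers of cells, Cdh1 of the tumor line list was higher at 2.38 (SE 0.67, adjusted p = 0.028), Lpl of the adipocyte list at 2.27 (SE 0.68, adjusted p = 0.0359) and Cd5 of the T and NK cell list at 1.4995 (SE 0.48, adjusted p = 0.0458). No macrophage, muscle, keratinocyte or erythroid gene passed, and the part of these genes in the result was not tested.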

How the data were processed

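RNA-seq of 40 EMT-6 tumors was used. The authors deposited RSEM expected counts per gene and, per the file headers, TPM (length-scaled transcript levels with a fixed sum per library) per gene; the counts as deposited were not otherwise normalized. Per the submitters' processing notes, RSEM 1.2.31 and Bowtie2 2.3.1 were used with the mm10 build. The annotation release and strand setting were not given in the sources used here, so overlapping genes and antisense partners may share reads.

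Expected counts were rounded to whole numbers. Genes were kept with filterByExpr, scaled by the trimmed mean of M-values and tested with edgeR 4.0.16 (quasi-likelihood test, Benjamini-Hochberg adjustment over all genes, threshold 0.05) in R 4.3.3, with limma 3.58.1 and DESeq2 1.42.0 as alternatives. TPM was tested as log2(TPM + 1). Set 2 (24 libraries), set 1 (16) and the trap control libraries (10) were fitted apart, and comparisons across sets in a fit of all 40. Printed CPM are scaled over the 40 libraries. Printed SE of edgeR log2 fold changes are the absolute log2 fold change divided by the square root of the test's F statistic. Tables and plots were made in Python 3.11.15 with pandas 2.3.3. The scripts were tested on simulated data. Library totals ran from 13495835 to 27658263.

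The members and the 13 lists (161 genes) were chosen with earlier results of these data known. Genes were named by a rule: up to 12 called members per direction and comparison by smallest p, the 3 highest members of each type by mean TPM, the Hist3 and Hist4 genes and the testis genes, and of each list up to 4 by smallest p beside a few fixed ones. Exceptions are named as such.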

Additional observations from a re-analysis of the deposited data

Results flagged for a closer look

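In 130 sets of values, each the libraries of one group for one gene or share, a gap test asked whether the highest or lowest library stood apart. Chance gives about 5% of such results. Those that stood apart are all named in this paragraph, and values from the same library are not independent. In anti-PD-L1 library C0469 the histone share was 1.33% of protein-coding counts, against a group median of 1.05%, and CPM were high for Hist1h3c (194), Hist1h4n (425) and Hist4h4 (266). Bifunctional library C0479, 1 of the 2 with the most muscle RNA in its group, had the lowest share, 0.592%. In set 2 trap control library C0467, Hist1h2bl (79.5 CPM), Hist3h2a (98.1 CPM) and Hist4h4 (232 CPM) were highest, and in C0465 H4 genes took the lowest part of histone counts, 27.8%. Hist2h3c1 reached 0.48 CPM in set 1 trap control library C0461. Without C0469 the share in bifunctional tumors was 16.9% below that in anti-PD-L1 tumors.

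The difference between bifunctional minus anti-PD-L1 and trap control minus isotype was itself tested in edgeR, with 31 members lower and 1 higher. On the log2 scale it was 7.22 for Hist2h3c1, -1.1 for Hist1h2an, -0.611 for Hist1h2bc and -0.796 for Hist1h2af. It was -0.83 for Hist1h2ae, -0.924 for Hist1h4k, -0.7 for Hist2h2ab and -0.851 for Hist2h2ac. It was -0.894 for Hist1h3a, -0.73 for Hist3h2a, -0.629 for Hist1h2ap, -0.725 for Hist1h2bn and -0.683 for Hist1h3c. The set and the PD-L1 arm cannot be told apart in these values.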

How the results depend on the processing

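Counts are of members called, and the share of all genes called is not given here for every setting. For bifunctional over anti-PD-L1 (45 lower, 1 higher), 29 were lower without C0479 and C0484, 1 lower and 2 higher on TPM, and 0 lower with the S phase list, which itself fell between these groups, as a covariate. The count higher was 0 with only the groups compared, on TPM with equal medians and with the S phase covariate. For bifunctional over trap control, DESeq2 gave 9 lower. For trap control over isotype (1 higher, 1 lower), both counts were 0 without the filter, on TPM, on TPM with equal medians and without C0463. With all 40 libraries 4 were higher and 0 lower, and with the S phase covariate 20 were higher. The count lower was 0 with the structural RNA covariate and in DESeq2, which gave Hist2h3c1 no adjusted p. Between the trap control sets (38 lower), leaving out each set 2 library gave 22 to 35 lower, the lowest without C0467. The structural RNA covariate gave 0 lower and 1 higher, and the S phase covariate 5 lower and 2 higher. DESeq2 and protein-coding genes alone gave 1 higher, and TPM with equal medians 2. For anti-PD-L1 over isotype DESeq2 gave 1 lower. For the difference of differences (31 lower), 20 were lower without the filter, 15 without C0479 and C0484, 16 without C0463, 7 with the S phase covariate, 0 on TPM and, with equal medians, 1 lower and 0 higher. Hist2h3c1 turned to -0.051 for bifunctional over anti-PD-L1 on TPM with equal medians. Other causes were not tested. Equal medians, the covariates and leaving out C0463 were added after the data were seen. No paired analysis was possible because the labels give no replicate numbers shared between groups. Reads shared between copies, 4 trap control libraries in set 2 and the set of each group limit these comparisons.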
